A study of Homo sapiens with 22 samples.

Results

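The AP-1 transcription factors are described here as 9 genes out of the 35237 rows of the deposited gene table: FOS, FOSB, FOSL1 and FOSL2 of the FOS family, JUN, JUNB and JUND of the JUN family, and the related factors ATF3 and BATF3. They were chosen by name, and each of the 9 symbols matched 1 row. The study sequenced 22 RNA samples of 2 established human neuroblastoma cell lines, comparing untreated cells with cells kept in PP121, an inhibitor of tyrosine kinases and of the PI3 kinase and mTOR family, and bufalin, a cardiac steroid that blocks the sodium and potassium pump.

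In SK-N-AS, untreated cells grew in DMEM with 10% serum (n = 4). S1D4 cells had 4 days of 5 µM PP121 in DMEM with 1% serum (n = 4). S2D4 and S2D30 cells passed through S1D4 and were then kept for 4 or 30 days in 5 µM PP121 and 100 nM bufalin in Neurobasal medium with B27 supplement (n = 4 each). In GIMEN, untreated cells grew in RPMI with 10% serum (n = 3), and D30 cells had 30 days of 2.5 µM PP121 and 10 nM bufalin in RPMI with 1% serum (n = 3). Medium and serum therefore changed together with the compounds in each comparison of treated with untreated cells, and the effects of these cannot be told apart. No untreated culture in the treatment media was analysed here. Nothing in the labels says that the replicates were separate cultures, so p-values measure the spread between these samples, which may be technical.

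AP-1 is a dimer of basic leucine zipper proteins. FOS proteins cannot pair with each other and bind DNA only with a JUN partner, while JUN proteins can also pair among themselves. The dimers bind the TRE, a short palindrome first known from genes that respond to phorbol esters, and the related CRE of cyclic AMP response. FOS, FOSB, JUN and JUNB are classical immediate early genes: serum, growth factors, membrane depolarisation and stress raise their mRNA within minutes through kinases that act on factors already bound to their promoters, and in serum-fed cells the mRNA is usually short-lived. FOSL1 and FOSL2 follow later and lack the strong transactivation domain of FOS and FOSB. JUND is expressed in many resting cells. ATF3 is a stress-induced factor that represses as a homodimer, and BATF3 pairs with JUN proteins and is best known from dendritic cells.

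The promoters of 5 members are shown to set the classical immediate early genes FOS, FOSB, JUN and JUNB, which rose in SK-N-AS, beside JUND, which did not pass the test against untreated cells with all libraries in the fit. FOSL2 and ATF3, which also rose, are described below without their sequences. Whether the marked letters bear on these changes was not tested. Each sequence is the 250 bases before the RefSeq start site on the gene's own strand (GRCh38.p14), 5′ to 3′. Capitals mark TGACGT (the first part of the CRE), TGACGTCA (the whole CRE), TGACATCA (a TRE-like variant) or TATAAA, on either strand.
FOS: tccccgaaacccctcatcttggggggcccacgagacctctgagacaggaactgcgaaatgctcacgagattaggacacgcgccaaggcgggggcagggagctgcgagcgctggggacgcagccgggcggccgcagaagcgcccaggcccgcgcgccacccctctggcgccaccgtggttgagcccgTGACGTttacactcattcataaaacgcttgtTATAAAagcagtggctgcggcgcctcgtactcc
FOSB: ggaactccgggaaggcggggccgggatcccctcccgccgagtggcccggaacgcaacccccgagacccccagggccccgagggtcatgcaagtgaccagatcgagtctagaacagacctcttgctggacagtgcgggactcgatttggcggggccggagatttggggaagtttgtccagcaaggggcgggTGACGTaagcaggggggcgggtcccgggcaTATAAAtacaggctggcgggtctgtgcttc
JUN: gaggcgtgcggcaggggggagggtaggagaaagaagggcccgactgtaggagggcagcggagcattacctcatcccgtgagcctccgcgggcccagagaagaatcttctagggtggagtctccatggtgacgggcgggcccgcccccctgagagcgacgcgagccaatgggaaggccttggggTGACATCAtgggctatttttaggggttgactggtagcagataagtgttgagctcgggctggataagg
JUNB: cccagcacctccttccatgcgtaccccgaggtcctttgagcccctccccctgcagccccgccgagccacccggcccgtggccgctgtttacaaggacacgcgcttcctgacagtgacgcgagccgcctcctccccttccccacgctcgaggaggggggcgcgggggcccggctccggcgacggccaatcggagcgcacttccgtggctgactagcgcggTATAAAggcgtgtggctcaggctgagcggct
JUND: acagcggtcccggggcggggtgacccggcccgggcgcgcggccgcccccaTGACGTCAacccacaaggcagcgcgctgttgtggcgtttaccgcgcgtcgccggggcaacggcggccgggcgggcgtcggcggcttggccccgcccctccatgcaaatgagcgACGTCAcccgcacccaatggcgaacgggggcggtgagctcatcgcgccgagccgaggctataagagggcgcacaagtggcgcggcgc
These windows are FOS chr14:75278578-75278827 (plus strand), FOSB chr19:45467746-45467995 (plus strand), JUN chr1:58784048-58784297 (minus strand), JUNB chr19:12791236-12791485 (plus strand) and JUND chr19:18281623-18281872 (minus strand).

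FOS and FOSB were alike in arrangement, with TGACGT from base 64 to 59 before the start in FOS and from base 60 to 55 in FOSB, followed by TATAAA from base 33 to 28 and from base 30 to 25. JUNB had TATAAA from base 31 to 26 and neither form of the CRE. JUN had TGACATCA from base 67 to 60 and no TATAAA. JUND, the member with the highest untreated SK-N-AS level, had the whole CRE from base 200 to 193 and the TGACGT letters on the other strand from base 87 to 82, again with no TATAAA. FOSL2 (chr2:28392608-28392857, plus strand) had TGACGT from base 66 to 61. ATF3 had 2 windows (chr1:212565157-212565406 and chr1:212614768-212615017, plus strand), with TGACATCA in the first and TATAAA in the second. FOSL1 and BATF3 had no window in the table used. Among 35116 RefSeq windows of the same length, 7.102% held TGACGT, 1.646% held TGACGTCA, which contains TGACGT, 2.375% held TGACATCA and 10.716% held TATAAA. The TRE, TGACTCA, was in 4.203% of windows, and the CArG box of serum response factor was in 1.159%. Neither was found in a member's window, and sites outside these 250 bases were not searched. TGACATCA and TGACGT were added to the search after these sequences had been read. A match is a description of letters and not a measured binding site.

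Total counts per library ran from 16456484 to 37506800, and mitochondrial genes took 2.86% to 12.4% of them. Levels are given as CPM, edgeR's measure of a gene's counts relative to its library's size, with TMM factors fitted once over all 22 libraries. In bulk RNA, fewer cells with a transcript and less transcript per cell cannot be told apart. S2D4 replicate 4 stood apart: its correlation with the other S2D4 libraries over log2 CPM was 0.967 to 0.969, against 0.990 among those 3, and in 16.9% of the 15810 genes tested in SK-N-AS it lay away from them by Dixon's gap criterion. Member fold changes and calls that use S2D4 are given with and without it. The labels call both lines mesenchymal. Untreated GIMEN had FN1, a mesenchymal marker, at 31478 ± 1048 CPM (SD, n = 3), and 10 markers of the adrenergic state summed to 452 to 475 CPM against 37780 to 39375 CPM for 10 mesenchymal markers. Untreated SK-N-AS did not show this pattern, with FN1 at 60.3 ± 18.4 CPM (SD, n = 4). Its sums were 1671 to 1909 CPM for the adrenergic and 906 to 1413 CPM for the mesenchymal markers. Abundant genes weigh most in such sums, so the sums do not settle the state of a line. In untreated GIMEN libraries 1 to 2 of the mesenchymal and 4 to 5 of the adrenergic markers had 0 counts. No marker of either list had 0 counts in an untreated SK-N-AS library. Of 12 leukocyte markers up to 8 had 0 counts in an untreated SK-N-AS library, but PTPRC stood at 177 ± 20.9 CPM.

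**Figure D1:**
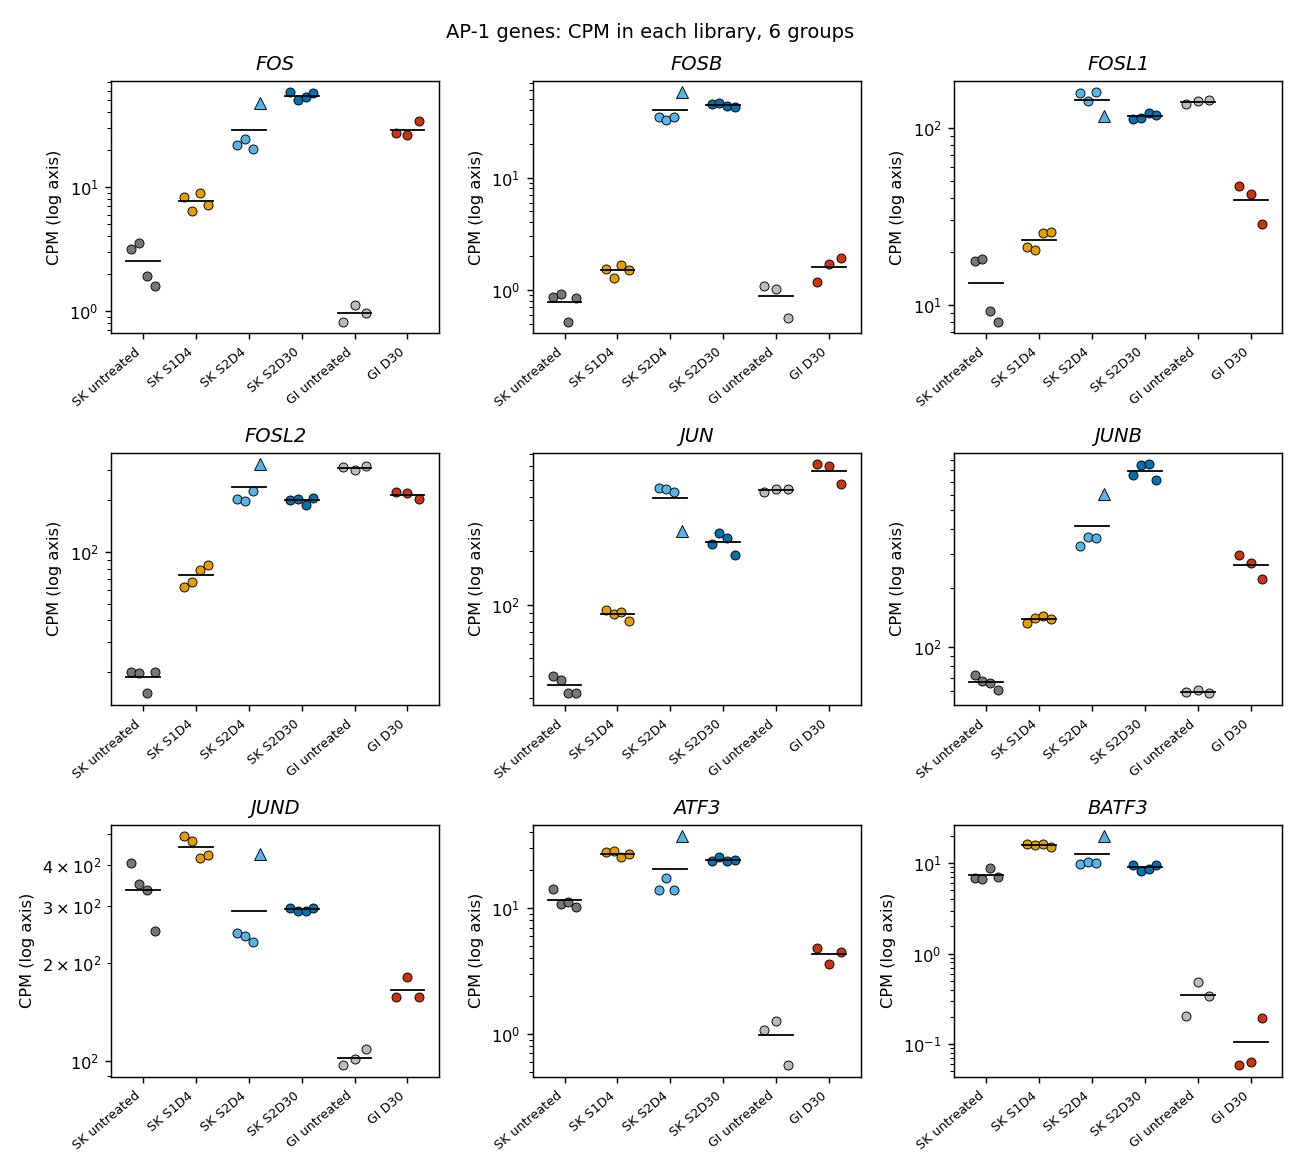
Level of each AP-1 gene in every library, in CPM on a log axis, for 4 SK-N-AS groups (SK) and 2 GIMEN groups (GI). Points are libraries, black lines are group means, and the triangle is S2D4 replicate 4. FOS, FOSB, JUN and JUNB are lowest in untreated SK-N-AS among the SK-N-AS groups, while JUND differs least. BATF3 in GIMEN D30 rests on 1 to 3 counts per library.

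In SK-N-AS, 4 days of PP121 in low serum were accompanied by higher mRNA of 8 of the 9 genes, and the later move to bufalin in the neuronal medium by further rises of FOS, FOSB, FOSL1, FOSL2, JUN and JUNB. With all libraries in the fit, JUND did not pass the test against untreated cells at any time. Calls are edgeR quasi-likelihood tests over all genes with a Benjamini-Hochberg adjusted p under 0.05. At S1D4, 8 members rose and 0 fell, beside a background of 40.1% of the 15810 genes called, 17.6% higher and 22.4% lower. At S2D4, 8 rose and 0 fell (background 63.1% called, 30.9% higher and 32.2% lower), and without S2D4 replicate 4 the counts were 8 and 1 (65.5% called, 31.2% higher and 34.3% lower). At S2D30, 7 rose and 0 fell (70.3% called, 33.8% higher and 36.5% lower). No treated library overlapped an untreated one for 9 members at S1D4, 7 at S2D4 and 7 at S2D30, where the same held for 38.3%, 51.2% and 66.4% of all genes. These 3 comparisons share the untreated libraries. The median log2 fold change of the members was 1.10, 3.39 and 3.09 in turn, against -0.01, -0.02 and -0.03 over all genes tested; the members' S2D4 median was 3.08 without replicate 4.

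FOS is the founding immediate early member and the strongest activator of its family together with FOSB. FOS stood at 3.16, 3.54, 1.91 and 1.59 CPM in untreated SK-N-AS and at 8.27, 6.40, 8.90 and 7.18 CPM at S1D4. It reached 21.8, 24.5, 20.3 and 47.8 CPM at S2D4 and 57.9, 49.99, 53.3 and 57.3 CPM at S2D30. Each group lay wholly above the one before it. Its log2 fold change against untreated cells was 1.56 at S1D4 (standard error, SE, 0.28, adjusted p = 0.000354), 3.45 at S2D4 (SE 0.29, adjusted p = 2.56e-08) and 4.38 at S2D30 (SE 0.29, adjusted p = 9.97e-10). The last of these is a 20.8-fold rise. Without S2D4 replicate 4 the S2D4 value was 3.08 (adjusted p = 9.42e-10).

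FOSB, whose short splice form is known for its long life in neurons, had the largest rise of the 9 genes in SK-N-AS. It was lowest in untreated cells, at 0.865, 0.918, 0.525 and 0.854 CPM (11 to 35 counts), and a little higher at S1D4, at 1.53, 1.27, 1.69 and 1.51 CPM. At S2D4 it stood at 34.5, 32.6, 34.8 and 57.1 CPM, and at S2D30 at 44.95, 46.2, 43.1 and 42.4 CPM. The step therefore lay between S1D4 and S2D4, where it rose 26.3-fold (log2 4.71, SE 0.19, adjusted p = 3.92e-11, or 4.49 without S2D4 replicate 4). Against untreated cells the change was 0.87 at S1D4 (SE 0.22, adjusted p = 0.00531), 5.59 at S2D4 (SE 0.21, adjusted p = 2.82e-12) and 5.74 at S2D30 (SE 0.21, adjusted p = 7.89e-13) on the log2 scale. Without S2D4 replicate 4 the S2D4 change was 5.36 (adjusted p = 8.25e-15).

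FOSL1 and FOSL2, the later and weaker activators of the family, had their highest SK-N-AS group means at S2D4. FOSL1 read 17.8, 18.1, 9.25 and 8.06 CPM in untreated cells, 21.3, 20.4, 25.3 and 25.8 CPM at S1D4, 156, 142, 158 and 117 CPM at S2D4, and 112, 114, 121 and 118 CPM at S2D30. Every S1D4 library lay above the untreated ones, with untreated replicates 1 and 2 closer to S1D4 than replicates 3 and 4. FOSL1 rose by a log2 fold change of 0.77 at S1D4 (SE 0.21, adjusted p = 0.0082), 3.39 at S2D4 (SE 0.22, adjusted p = 1.86e-09) and 3.09 at S2D30 (SE 0.22, adjusted p = 2.28e-09). FOSL2 read 20.0, 19.8, 15.1 and 20.1 CPM in untreated cells, 62.5, 66.5, 78.9 and 84.5 CPM at S1D4, 203, 197, 225 and 323 CPM at S2D4, and 202, 205, 188 and 207 CPM at S2D30. Of the 9 genes it had the largest log2 fold change at S1D4, 1.94 (SE 0.15, adjusted p = 1.16e-07), with 3.62 at S2D4 (SE 0.16, adjusted p = 1.85e-11) and 3.38 at S2D30 (SE 0.16, adjusted p = 1.28e-11). Leaving out S2D4 replicate 4 gave S2D4 changes of 3.47 for FOSL1 (adjusted p = 6.21e-10) and 3.44 for FOSL2 (adjusted p = 2.95e-13). Between S2D4 and S2D30 neither FOSL1 (log2 -0.30, adjusted p = 0.23) nor FOSL2 (log2 -0.25, adjusted p = 0.162) passed the test, and without that library neither did so (-0.39, adjusted p = 0.114, and -0.064, adjusted p = 0.649).

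JUN, the partner that gives the FOS proteins their DNA binding and the main target of the JNK kinases, peaked at S2D4. It stood at 39.9, 37.6, 31.9 and 32.04 CPM in untreated cells and at 93.3, 89.2, 91.6 and 81.6 CPM at S1D4. At S2D4 it reached 450, 445, 429 and 261 CPM, and at S2D30 it was back at 220, 253, 237 and 189 CPM. S2D4 replicate 4 was the low library here, just above the highest S2D30 library, whereas it was the high one for FOS, FOSB and JUNB. JUN rose by a log2 fold change of 1.30 at S1D4 (SE 0.15, adjusted p = 5.96e-06), 3.45 at S2D4 (SE 0.16, adjusted p = 3.85e-11) and 2.63 at S2D30 (SE 0.16, adjusted p = 2.33e-10). The S2D4 value was 3.61 without replicate 4 (adjusted p = 6.51e-14). Its fall from S2D4 to S2D30 was -0.82 (SE 0.15, adjusted p = 0.000209), and -0.98 without S2D4 replicate 4 (adjusted p = 4.26e-07).

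JUNB, a weaker activator than JUN that can dampen it, went on rising to day 30. JUNB read 72.2, 67.1, 65.9 and 60.3 CPM in untreated cells, 133, 141, 145 and 139 CPM at S1D4, 328, 364, 361 and 602 CPM at S2D4, and 758, 855, 859 and 713 CPM at S2D30. No group overlapped another. On the log2 scale the change against untreated cells was 1.04 at S1D4 (SE 0.15, adjusted p = 4.23e-05), 2.60 at S2D4 (SE 0.16, adjusted p = 5.58e-10) and 3.55 at S2D30 (SE 0.16, adjusted p = 1.06e-11), with 2.37 at S2D4 without replicate 4 (adjusted p = 7.06e-13). JUNB transcripts share 10.6% of their 75-base words with transcripts of HOOK2, so its counts depend in part on how reads with several matches were treated, which is not given in the sources used here. None of the other members shared such words.

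JUND, the member typical of resting cells, read 407, 349, 337 and 251 CPM in untreated cells, 492, 474, 421 and 429 CPM at S1D4, 247, 242, 233 and 432 CPM at S2D4, and 296, 290, 290 and 295 CPM at S2D30. The S1D4 libraries were all above the untreated ones, but the log2 difference of 0.40 (SE 0.17) did not pass the test (adjusted p = 0.0747). It did pass without untreated replicate 1 (0.54, adjusted p = 0.031). At S2D4 the difference from untreated cells was -0.26 (SE 0.17, adjusted p = 0.208), and without S2D4 replicate 4 JUND was called lower (-0.52, adjusted p = 0.00127). At S2D30 it was -0.24 (SE 0.17, adjusted p = 0.231), with values inside the untreated range.

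ATF3, the stress-induced repressor, stood at 14.1, 10.8, 11.1 and 10.2 CPM in untreated cells, 27.8, 28.3, 25.7 and 26.8 CPM at S1D4, 13.8, 17.3, 13.97 and 37.4 CPM at S2D4, and 23.6, 25.3, 23.5 and 24.1 CPM at S2D30. It rose at S1D4 (log2 1.20, SE 0.24, adjusted p = 0.00087) and was higher than untreated at S2D30 (1.02, SE 0.24, adjusted p = 0.00123). At S2D4 the value was 0.80 (SE 0.24, adjusted p = 0.0083), and 0.34 without replicate 4 (adjusted p = 0.0175), the single library above the S1D4 range. BATF3, a small factor without a transactivation domain, had the same profile up to S2D4. BATF3 read 6.85, 6.64, 8.78 and 7.02 CPM in untreated cells, 16.1, 16.1, 16.2 and 15.2 CPM at S1D4, 9.78, 10.2, 10.1 and 20.0 CPM at S2D4, and 9.52, 8.29, 8.70 and 9.64 CPM at S2D30. It was higher at S1D4 (1.10, SE 0.19, adjusted p = 0.000282) and at S2D4 (0.74, SE 0.19, adjusted p = 0.00296, or 0.42 and adjusted p = 0.0032 without S2D4 replicate 4), and did not pass the test at S2D30 (0.27, SE 0.19, adjusted p = 0.222).

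**Figure D2:**
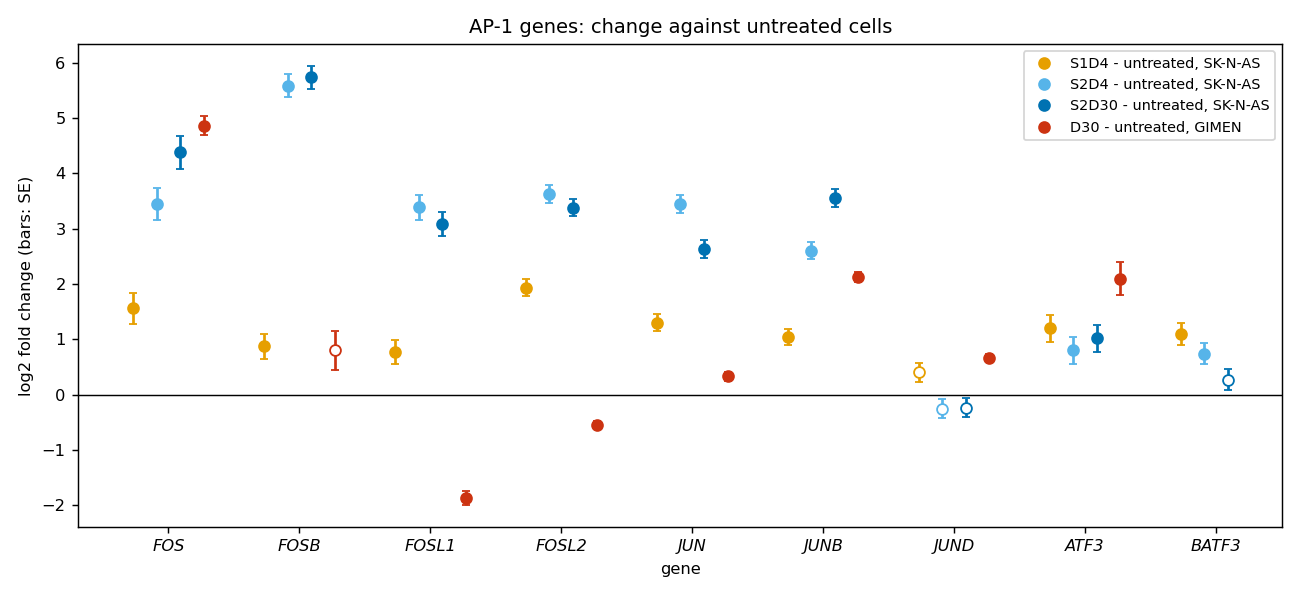
Fold change of each AP-1 gene against untreated cells of its own line, on the log2 scale, with bars of 1 SE; filled points passed the edgeR test at an adjusted p under 0.05 and open points did not. The 3 SK-N-AS comparisons share 4 untreated libraries. FOSB and FOS reach 5.74 and 4.38 at S2D30, and in GIMEN FOSL1 and FOSL2 lie below 0. BATF3 was not tested in GIMEN and has no point there.

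In the step that added bufalin and changed the medium, all of the FOS family rose together with JUN and JUNB. From S1D4 to S2D4, 6 members rose and 1 fell, against a background of 55.1% of genes called (28.3% higher, 26.8% lower). The 2 groups did not overlap for 6 members and for 49.5% of genes. FOSB rose most, and FOSL1 (log2 2.62, adjusted p = 5.46e-08) and JUN (2.15, adjusted p = 1.06e-08) followed. FOS (1.89), FOSL2 (1.69) and JUNB (1.56) also rose, with adjusted p of 1.5e-05, 9.11e-08 and 2.87e-07. JUND fell by 0.66 (SE 0.17, adjusted p = 0.00415). Without S2D4 replicate 4 the rises were 2.70 for FOSL1, 2.30 for JUN, 1.52 for FOS, 1.51 for FOSL2 and 1.32 for JUNB, and the change of JUND was -0.92, with adjusted p from 2.1e-11 (JUN) to 6.73e-06 (JUND). ATF3 (-0.40, adjusted p = 0.162) and BATF3 (-0.35, adjusted p = 0.126) did not pass, but without S2D4 replicate 4 both were called lower, at -0.86 (adjusted p = 7.81e-06) and -0.68 (adjusted p = 6.28e-05), which makes 6 higher and 3 lower beside 58.2% of genes called in that fit (28.9% higher, 29.3% lower).

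Between day 4 and day 30 of the second stage the composition shifted further. FOS (log2 0.93, SE 0.25, adjusted p = 0.00498) and JUNB (0.94, SE 0.15, adjusted p = 5.48e-05) rose, while JUN and BATF3 (-0.47, SE 0.19, adjusted p = 0.049) fell. That is 2 members higher and 2 lower, where 51.3% of all genes were called (24.4% higher, 26.9% lower). For 4 members the groups did not overlap, as for 50.3% of genes. FOSB (0.15, adjusted p = 0.445), JUND (0.02, adjusted p = 0.94) and ATF3 (0.22, adjusted p = 0.462) did not pass. The BATF3 call did not hold under any other scaling, filter or test. The share of members called was near the background. FOS (1.30, adjusted p = 1.56e-05) and JUNB (1.18, adjusted p = 1.01e-08) also rose without S2D4 replicate 4. There were then 4 higher and 1 lower, beside 53.7% of genes called (26.5% higher, 27.2% lower): FOSB (0.37, adjusted p = 0.00413) and ATF3 (0.68, adjusted p = 0.000108) were then called higher, and BATF3 (-0.15, adjusted p = 0.266) was not called.

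In S2D4 replicate 4, several groups of genes differed from the other 3 libraries together with the members. The ratio of its CPM to the mean of the other 3 was 2.49 for ATF3, 2.16 for FOS, 1.99 for BATF3, 1.79 for JUND, 1.72 for JUNB, 1.68 for FOSB and 1.55 for FOSL2, but 0.767 for FOSL1 and 0.590 for JUN. The summed CPM of the 10 mesenchymal markers was 2504 in it, against 5685 to 5855 in the others, and that of the 10 adrenergic markers was 914, against 598 to 642. The 22 textbook AP-1 targets summed to 4213 CPM in it, against 6376 to 6593. Their part in the members' values was not tested.

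Per kilobase of exon, which allows levels of different genes to be set side by side, the JUN family changed from mostly JUND to mostly JUNB in SK-N-AS. JUND made up 79.3% ± 2.14 of the JUN family's CPM per kb in untreated cells and 70.5% ± 1.90 at S1D4. At S2D4 its share was 30.8% ± 3.85, with JUNB at 45.4% ± 4.69 and JUN at 23.8% ± 8.20. By S2D30 JUNB held 66.4% ± 1.51, JUND 24.0% ± 1.93 and JUN 9.63% ± 0.569 (all SD, n = 4). The JUN share at S2D4 was 28.9%, 27.6% and 27.2% in replicates 1 to 3 and 11.6% in replicate 4; without the last, JUND held 28.95% ± 1.06, JUNB 43.1% ± 1.92 and JUN 27.9% ± 0.863 (SD, n = 3). In level, JUND stood at 180 ± 34.5 CPM per kb in untreated cells and 157 ± 1.75 at S2D30, while JUNB went from 36.5 ± 2.68 to 437 ± 39.7 CPM per kb.

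The FOS family kept FOSL1 as its most abundant transcript in each SK-N-AS group by mean CPM per kb. In CPM without lengths, FOSL2 had the higher mean in each of these groups (18.7 against 13.3 CPM in untreated cells). The FOSL1 share of FOS family CPM per kb was 64.2% ± 7.25 in untreated cells, 48.0% ± 0.396 at S1D4, 60.3% ± 9.52 at S2D4 and 53.0% ± 1.51 at S2D30. FOS took 7.79% ± 0.778 in untreated cells and 15.6% ± 0.924 at S2D30, and FOSB 1.35% ± 0.378 and 6.67% ± 0.360. The family as a whole went from 10.99 ± 3.44 CPM per kb to 26.2 ± 3.10 at S1D4, 129.6 ± 7.24 at S2D4 and 119 ± 1.89 at S2D30. JUN family transcripts outnumbered FOS family transcripts in all 6 groups: the ratio per kb was 21.6 ± 4.96 in untreated SK-N-AS, 13.4 ± 2.23 at S1D4, 3.80 ± 0.580 at S2D4 and 5.52 ± 0.449 at S2D30. Without S2D4 replicate 4 the S2D4 values were 65.03% ± 1.04 for the FOSL1 share, 127 ± 6.04 CPM per kb for the family and 3.53 ± 0.228 for the ratio (SD, n = 3).

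Ordered by CPM per kb, untreated SK-N-AS ran JUND, JUNB, JUN, BATF3, FOSL1, ATF3, FOSL2, FOS and FOSB. In that order BATF3 overlapped FOSL1, and FOSL1 overlapped ATF3, while other neighbours were separate in the 4 libraries. At S2D30 the order was JUNB, JUND, JUN, FOSL1, FOSL2, FOS, ATF3, BATF3 and FOSB, where JUN overlapped FOSL1 and ATF3 overlapped BATF3. Untreated GIMEN began with JUN, FOSL1, JUND, FOSL2 and JUNB, each separate from the next. Lengths are those of GENCODE v29 exons, and the annotation used for counting is not given in the sources used here, so these orders hold for these lengths only.

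**Figure D3:**
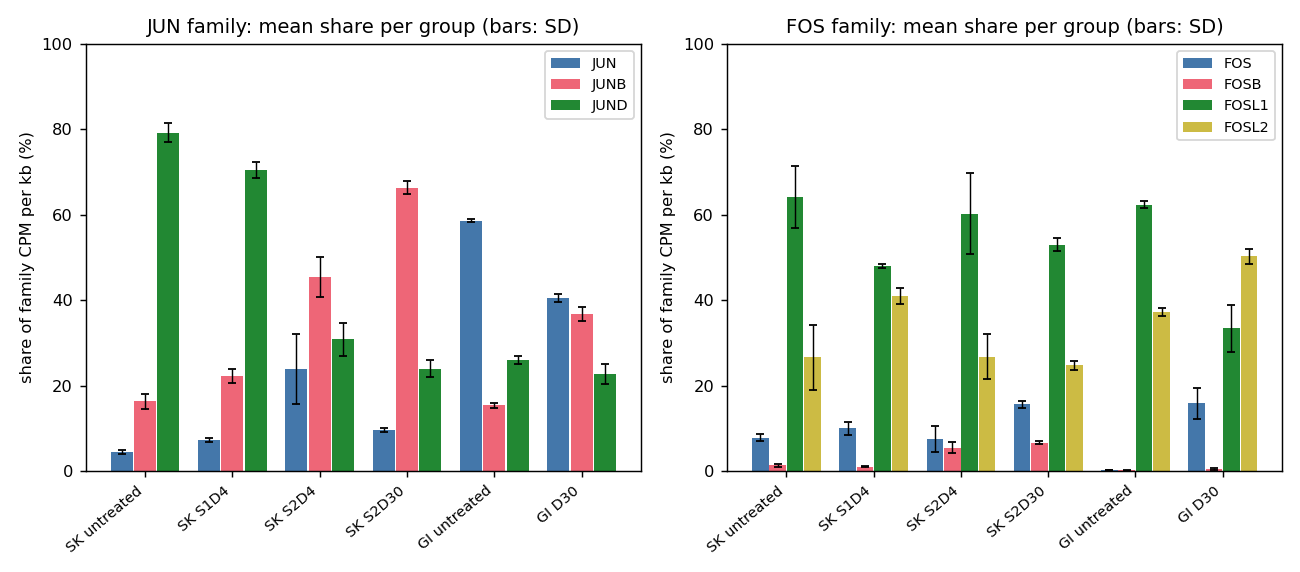
Mean share of each gene in the CPM per kb of its family, in percent, for 4 SK-N-AS groups (SK, n = 4) and 2 GIMEN groups (GI, n = 3), with bars of 1 SD. JUND is the largest JUN family share in untreated SK-N-AS (79.3%) and JUNB at S2D30 (66.4%); in GIMEN the largest is JUN (58.6% untreated, 40.5% at D30).

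Between the untreated lines 7 of the 9 members differed, a share near that of all genes. FOSL1, FOSL2 and JUN were lower in SK-N-AS than in GIMEN, by log2 fold changes of -3.40 (SE 0.23, adjusted p = 6.61e-10), -4.05 (SE 0.10, adjusted p = 1.21e-15) and -3.65 (SE 0.12, adjusted p = 6.48e-14). FOS (1.38, adjusted p = 0.000454), JUND (1.70, adjusted p = 5.26e-09), ATF3 (3.53, adjusted p = 1.65e-10) and BATF3 (4.36, adjusted p = 1.69e-10) were higher. FOSB (-0.18, adjusted p = 0.539) and JUNB (0.15, adjusted p = 0.219) did not pass. This made 4 members higher and 3 lower, with 73.9% of 16246 genes called (38.6% higher, 35.3% lower). For 7 members the lines did not overlap, as for 71.7% of genes. The 2 lines also grew in different media.

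After 30 days of both compounds in GIMEN, FOS had risen most and FOSL1 and FOSL2 had fallen. FOS read 0.825, 1.13 and 0.960 CPM in untreated cells (16 to 23 counts) and 27.2, 26.1 and 34.0 CPM at D30, a 29.1-fold rise (log2 4.86, SE 0.18, adjusted p = 8.37e-10). JUNB went from 59.3, 60.6 and 58.2 CPM to 296, 270 and 223 CPM (2.12, SE 0.09, adjusted p = 3.85e-09). FOSL1 fell from 136, 141 and 142 CPM to 46.6, 42.2 and 28.8 CPM (-1.86, SE 0.13, adjusted p = 1.68e-07). None of these groups overlapped. FOSL2 went from 312, 299 and 315 CPM to 224, 219 and 204 CPM (-0.54, SE 0.06, adjusted p = 7.93e-06).

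The other JUN genes rose less. JUN went from 429, 443 and 447 CPM to 613, 600 and 477 CPM (log2 0.33, SE 0.09, adjusted p = 0.00555), and JUND from 97.3, 101 and 109 CPM to 157, 182 and 157 CPM (0.66, SE 0.07, adjusted p = 9.2e-06). ATF3 was low in this line, at 1.08, 1.28 and 0.565 CPM, and stood at 4.81, 3.62 and 4.49 CPM at D30 (2.10, SE 0.30, adjusted p = 5.95e-05). FOSB, which had the largest rise in SK-N-AS, stayed near 1 CPM here: 1.08, 1.03 and 0.565 CPM untreated against 1.17, 1.71 and 1.93 CPM at D30 (0.80, SE 0.35, adjusted p = 0.0611). Without D30 replicate 1 that change was 0.99 and passed (adjusted p = 0.0387). BATF3 had 4, 10 and 6 counts in untreated GIMEN and 1, 1 and 3 counts at D30, too few to enter the test. Of the 8 members tested, 5 were higher and 2 lower, with 71.4% of 13517 genes called (35.5% higher, 36% lower). The share of members called was near the background. The groups did not overlap for any of the 8 tested members, as for 75.4% of genes. The members' median log2 fold change was 0.73.

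The GIMEN families shifted toward FOS and JUNB as well. JUN held 58.6% ± 0.312 of the JUN family's CPM per kb in untreated cells and 40.5% ± 0.935 at D30, while JUNB went from 15.4% ± 0.567 to 36.8% ± 1.70 (SD, n = 3). Per kb, FOSL2 replaced FOSL1 as the most abundant FOS family transcript, at 50.3% ± 1.73 against 33.4% ± 5.45, and FOS went from 0.271% ± 0.0426 to 15.9% ± 3.68. In CPM without lengths, FOSL2 was above FOSL1 in both groups (means of 309 against 140 CPM untreated and 216 against 39.2 CPM at D30). The FOS family total fell from 122 ± 1.86 to 63.2 ± 5.24 CPM per kb, and the JUN to FOS ratio went from 1.74 ± 0.0259 to 6.20 ± 0.256.

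The 30-day changes of the lines were set against each other in 1 model of 14 libraries. Their difference, SK-N-AS minus GIMEN on the log2 scale, was 4.93 for FOSL1 (SE 0.33, adjusted p = 3.55e-09), 4.92 for FOSB (SE 0.33, adjusted p = 4.23e-09), 3.91 for FOSL2 (SE 0.13, adjusted p = 1.61e-12), 2.28 for JUN (SE 0.17, adjusted p = 9.43e-09) and 1.41 for JUNB (SE 0.15, adjusted p = 6.58e-07). FOSL1 and FOSL2 moved in opposite directions, rising in each of the 4 S2D30 libraries and falling in each of the 3 D30 libraries relative to the untreated range. JUND (-0.92, SE 0.18, adjusted p = 0.000488) and ATF3 (-1.09, SE 0.28, adjusted p = 0.00419) changed more toward higher levels in GIMEN. For FOS the difference of -0.51 (SE 0.35, adjusted p = 0.243) did not pass, with a rise in both lines, and it did pass without untreated SK-N-AS replicate 4 (-0.71, adjusted p = 0.0405). Counted together, 6 members were higher and 2 lower, beside 49.7% of genes called (24.5% higher, 25.2% lower). BATF3, the other member called (1.97, adjusted p = 0.00722), rests on 1 to 3 counts in the GIMEN D30 libraries and its fitted value gives no bound. Doses, media and the first PP121 stage differed between the lines, and the line cannot be told apart from them.

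Genes around AP-1 were followed in 4 further lists. Of all genes tested, 40.1% were called at S1D4 (17.6% higher, 22.4% lower) and 63.1% at S2D4 (30.9% higher, 32.2% lower). At S2D30 70.3% were called (33.8% higher, 36.5% lower), and in GIMEN 71.4% (35.5% higher, 36% lower). Of 16 other basic leucine zipper factors, 15 were tested in SK-N-AS: 11 rose and 1 fell at S1D4 (median log2 fold change 0.79), 11 and 1 at S2D4 (1.42), and 12 and 1 at S2D30 (1.53). In GIMEN 12 rose and 1 fell of 14 (0.94). MAFF, a small MAF protein that pairs with NFE2 factors, went from 18.8 ± 3.25 to 61.8 ± 3.496 CPM at S1D4 (log2 1.68, adjusted p = 1.98e-06) and to 141 ± 47.7 CPM at S2D4 (2.86, adjusted p = 9.96e-10), or 117 ± 1.30 CPM (2.59) without S2D4 replicate 4. DDIT3, the stress factor CHOP, rose at S2D30 from 5.93 ± 0.926 to 131 ± 20.0 CPM (4.43, adjusted p = 1.02e-12) and in GIMEN from 13.0 ± 0.278 to 66.9 ± 11.02 CPM (2.34, adjusted p = 8.84e-09).

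The kinases and regulators that act on AP-1 had medians near 0. Of the 24, 1 was higher and 3 lower at S1D4 (median -0.06), 10 and 7 at S2D4 (0.02), 11 and 10 at S2D30 (-0.08), and 5 and 8 in GIMEN (-0.07). Among all genes, 40.1%, 63.1%, 70.3% and 71.4% were called in turn. At S1D4 the MEK gene MAP2K1 was slightly higher (log2 0.24, adjusted p = 0.0125) and the JNK gene MAPK9 lower (-0.54, adjusted p = 0.00239). ELK1, a cofactor of serum response factor at the FOS promoter, rose at S2D4 from 94.6 ± 7.24 to 261 ± 107 CPM (1.43, adjusted p = 3.54e-06), or 207 ± 3.73 CPM (1.10, adjusted p = 1.08e-09) without S2D4 replicate 4. Its relative ELK4 rose at S2D30 (1.53, adjusted p = 5.98e-09) and in GIMEN (0.43, adjusted p = 0.000103). RPS6KA2, an RSK kinase, fell at S2D4 (-1.30, adjusted p = 1.31e-06, or -1.33 without replicate 4) and S2D30 (-1.20, adjusted p = 2.06e-06), and MKL1, a coactivator of serum response factor, fell in GIMEN (-0.63, adjusted p = 6.19e-06). The transcripts say nothing of kinase activity.

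Most other immediate early genes were higher in the same comparisons. Of 22, 16 rose and 4 fell at S1D4 (median 1.05), 20 and 2 at S2D4 (3.23), and 20 and 2 at S2D30 (2.81). In GIMEN 15 rose and 3 fell of 20 (1.59). Beside these counts, 40.1%, 63.1%, 70.3% and 71.4% of all genes were called in turn. ARC, a synaptic immediate early gene, went from 11.6 ± 0.764 to 106 ± 36.2 CPM at S1D4 (3.16, adjusted p = 1.2e-06). EGR1, the zinc finger factor induced alongside FOS, went from 23.4 ± 6.87 to 1379 ± 358 CPM at S2D4 (5.84, adjusted p = 5.82e-10), or 1557 ± 40.1 CPM (6.02) without S2D4 replicate 4. NR4A3, an orphan nuclear receptor, rose at S2D30 from 0.633 ± 0.122 to 70.1 ± 8.13 CPM (6.77, adjusted p = 3.58e-13), and its relative NR4A2 in GIMEN from 22.1 ± 1.98 to 274 ± 23.0 CPM (3.61, adjusted p = 4.67e-11). BTG2, an antiproliferative gene, went the other way at S1D4 (-0.87, adjusted p = 0.00113), S2D4 (-1.72, adjusted p = 6.13e-07, or -1.91 without replicate 4) and S2D30 (-1.44, adjusted p = 2.63e-06). CTGF, a YAP and serum response target, fell in GIMEN from 64.6 ± 5.99 to 5.17 ± 0.769 CPM (-3.67, adjusted p = 3.32e-10).

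Textbook targets of AP-1 included the largest single changes of these lists. Of 21 tested, 10 rose and 3 fell at S1D4 (median 1.61), 17 and 2 at S2D4 (3.04), and 18 and 1 at S2D30 (4.32), and in GIMEN 12 rose and 5 fell of 18 (0.84). The shares of all genes called were 40.1%, 63.1%, 70.3% and 71.4% in the same order. MMP1, the collagenase whose promoter holds the best known TRE, went from 0.927 ± 0.568 CPM in untreated SK-N-AS to 1236 ± 788 at S2D4 (10.28, adjusted p = 4.03e-08, or 1629 ± 82.6 and 10.67 without replicate 4) and 9887 ± 1089 at S2D30 (13.28, adjusted p = 2.66e-09). In GIMEN it went from 3.86 ± 0.812 to 362 ± 187 CPM (6.52, adjusted p = 3.58e-08). CXCL8, the chemokine interleukin 8, rose at S1D4 from 0.243 ± 0.146 to 25.4 ± 16.1 CPM (6.51, adjusted p = 3.94e-07). CCND1, cyclin D1, fell at S1D4 (-0.58, adjusted p = 5.85e-05). Without S2D4 replicate 4 the S2D4 counts were 11 and 1 for zipper factors, 11 and 8 for regulators, 20 and 2 for immediate early genes, and 16 and 3 for targets. In that fit 65.5% of all genes were called (31.2% higher, 34.3% lower).

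**Figure D4:**
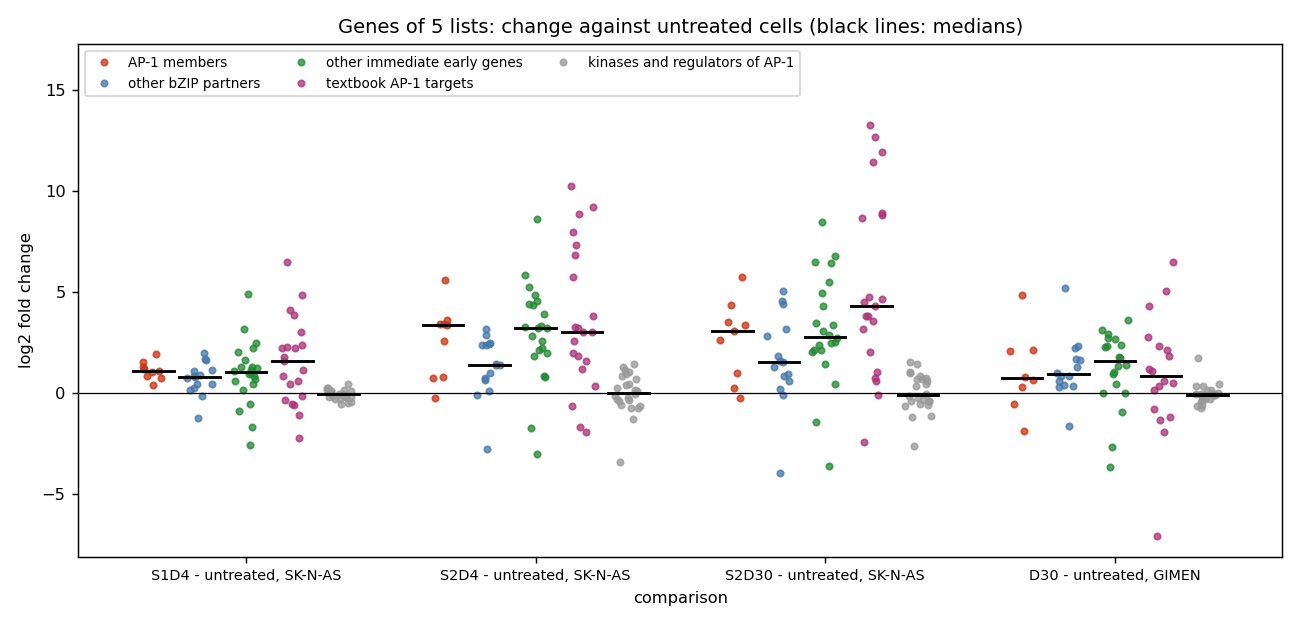
Fold change against untreated cells, on the log2 scale, of each tested gene in 5 lists (points) with the list median (black line), for 3 SK-N-AS comparisons that share their untreated libraries and for GIMEN. The AP-1 target median is 4.32 at S2D30, and the regulator medians lie between -0.08 and 0.02.

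Handling and cell type markers also moved with the groups. Of 12 heat stress genes, none rose at S1D4 or S2D4, where 8 and 9 fell, and at S2D30 4 rose and 5 fell. Among all genes, 17.6%, 30.9% and 33.8% rose in turn, and 22.4%, 32.2% and 36.5% fell. The summed CPM of the 12 genes ran from 3520 to 4726 in untreated SK-N-AS, 2533 to 2964 at S1D4, 2247 to 3099 at S2D4 and 3624 to 4083 at S2D30. The summed adrenergic markers ran from 1671 to 1909 CPM in untreated cells and 213 to 264 CPM at S2D30, and the mesenchymal ones from 906 to 1413 and 3962 to 4406 CPM. The leukocyte list, almost all PTPRC, summed to 160 to 208 CPM in untreated cells and 4.55 to 6.99 CPM at S2D30, and the Schwann and glial list stayed between 28.1 and 51.6 CPM in the SK-N-AS libraries. In GIMEN the mesenchymal sum moved the other way, from a range of 37780 to 39375 CPM untreated to 21499 to 24403 CPM at D30. The adrenergic sum there was 452 to 475 CPM untreated and 247 to 295 CPM at D30. The heat stress sum was 5710 to 5939 CPM and 4618 to 5054 CPM in turn. The part of these changes in the AP-1 values was not tested.

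The genes most like each member over the 22 libraries were found by the Pearson correlation of log2 CPM among 10284 genes with a mean of at least 10 CPM. The libraries fall into 6 groups and share their scaling, so r describes mostly the 6 group levels. For FOS these were SLC35G2 (r = 0.981), CHMP1B (0.977) and XBP1 (0.972), and for FOSB ST3GAL1 (0.983), COG1 (0.981) and NPTX1 (0.978). FOSL1 was closest to TNFRSF12A (0.986), TPD52L2 (0.965) and SERTAD1 (0.965), FOSL2 to SDC4 (0.980), KLF6 (0.976) and PLK3 (0.975), and JUN to STX1A (0.988), EMP1 (0.985) and KLF6 (0.979). JUNB was closest to ZNF791 and NR4A3 (both 0.982) and PIM3 (0.976). For JUND they were USP11 (0.969), TDRP (0.966) and VWA5B2 (0.965), for ATF3 HEY1 and GAS1 (both 0.976), and for BATF3 FBLIM1 (0.990), CHFR and CABLES1 (both 0.988). Over the 16 SK-N-AS libraries alone, 4 of the 27 genes so found were again among the 3 most alike.

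Among the members themselves, FOS and JUNB were closest, with r = 0.958 over 22 libraries and 0.987 over the 16 of SK-N-AS. FOSL2 and JUN followed over 22 libraries (0.940), while within SK-N-AS FOSB with FOSL1 (0.972), FOSL1 with JUN (0.963) and FOSB with JUNB (0.955) came before that pair (0.949). JUND, ATF3 and BATF3, all lower in GIMEN, had r of 0.850 to 0.913 over 22 libraries and lower values within SK-N-AS (0.528 for JUND with ATF3 and 0.778 for ATF3 with BATF3). FOS and JUN had r = 0.380 over 22 libraries and 0.870 within SK-N-AS.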

How the data were processed

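The authors deposited raw read counts per gene, 1 column per library and 35237 rows named by symbol. Per the labels' protocols, total RNA was treated with DNase, libraries were made by a company and sequenced as paired ends. The aligner, counter, genome build, annotation and strand setting are not given in the sources used here. Each column was matched to 1 sample by its title, and groups came from the labels.

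Genes passing edgeR's filterByExpr (minimum count 10, minimum total 15) were scaled by TMM (trimmed mean of M-values) and tested by edgeR 4.0.16 quasi-likelihood fits in R 4.3.3, with group as the only term and Benjamini-Hochberg adjustment over all genes of the fit: 15810 in 16 SK-N-AS libraries, 13517 in 6 GIMEN libraries and 16246 in 14 untreated and 30-day libraries. CPM used 1 TMM scaling of 22 libraries, and log2 CPM for correlations a prior count of 2. Totals of 16456484 to 37506800 counts per library mean that values under 1 CPM rest on few counts and are imprecise. The fits recovered the changes put into counts simulated from edgeR's own fitted model. That check does not cover genes with few counts or a library that stands apart.

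The 9 members, the lists and the tests were chosen with earlier results of these data known. From 4 related lists the text names, in each comparison of treated with untreated cells, the called gene with the largest rise and fall among genes of at least 10 CPM on average over the 2 groups. All members are named, with the 3 genes most like each. Some genes that these rules pick are not reported here. Marker genes named to check the labelled cell type were picked after their values were seen. Alternatives were other scalings (DESeq2 1.42.0 size factors, upper quartile), DESeq2's test, other filters, a replicate block, other sets of libraries, a fold threshold and leaving out each library. Added after seeing the data were 2 more: a term for replicates 1 and 2 against 3 and 4, and the lists, their named genes and the family shares without S2D4 replicate 4. Promoters came from RefSeq (GRCh38.p14, 7 of 9 members matched) and exon lengths from GENCODE v29. Protein sequences were not used here.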

Additional observations from a re-analysis of the deposited data

Results flagged for a closer look

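Dixon's gap criterion was applied to 36 sets of 4 SK-N-AS libraries (9 members in 4 groups), where chance flags about 1 in 20, and it marked 9. In 7 of the 9, S2D4 replicate 4 stood apart, as it did by the same criterion in 16.9% of the 15810 genes tested in SK-N-AS. The sets share libraries and are not separate draws. It was the highest S2D4 library for FOS (47.8 CPM), FOSB (57.1 CPM), JUNB (602 CPM), JUND (432 CPM), ATF3 (37.4 CPM) and BATF3 (20.0 CPM), and the lowest for JUN (261 CPM). Untreated SK-N-AS replicate 3 was the lowest of its group for FOSB (0.525 CPM) and FOSL2 (15.1 CPM).

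The 30-day change differed between the lines for 8 members by the edgeR interaction test, SK-N-AS minus GIMEN on the log2 scale, beside 49.7% of all genes (24.5% higher, 25.2% lower). The difference was 4.92 for FOSB, 4.93 for FOSL1, 3.91 for FOSL2, 2.28 for JUN and 1.41 for JUNB, each higher in 4 of 4 S2D30 libraries than in any untreated SK-N-AS library. It was -0.92 for JUND and -1.09 for ATF3, both higher in 3 of 3 GIMEN D30 libraries than in any untreated GIMEN library. BATF3 gave 1.97 with 1 to 3 counts per GIMEN D30 library.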

How the results depend on the processing

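No member's call against untreated cells in SK-N-AS was lost under another scaling, filter, test or left-out library. JUND at S1D4 gained one with upper-quartile factors (adjusted p = 0.0405) and with the compared groups alone (0.0299). The weakest call, BATF3 from S2D4 to S2D30, was lost under every other scaling, filter and test, the replicate block and the compared groups alone. These are 7 settings, with adjusted p from 0.0518 to 0.121. It was also lost without S2D4 replicate 4 (0.266) and without each S2D30 replicate in turn (0.067 to 0.11). Upper-quartile factors also called BATF3 lower from S1D4 to S2D4 (0.0322), FOSB higher in GIMEN (0.0495) and JUNB higher in untreated SK-N-AS than in GIMEN (0.0152). The compared groups alone called FOSL1 lower from S2D4 to S2D30 (0.036), all 22 libraries lost ATF3 in the difference between lines (0.0514), and leaving out untreated GIMEN replicate 2 lost BATF3 there (0.0578). In each case the cause was not tested.

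A minimum absolute log2 fold change of 1 left, by construction, 1942 genes called at S1D4, 4577 at S2D4, 5845 at S2D30, 3425 from S1D4 to S2D4, 3109 from S2D4 to S2D30, 3337 in GIMEN, 6853 between untreated lines and 4235 for the difference between lines. These are 12.3%, 28.95%, 37.0%, 21.7%, 19.7%, 24.7%, 42.2% and 26.1% of the genes tested. In the same order it left 6, 6, 7, 6, 0, 4, 7 and 7 members, losing FOSB and FOSL1 at S1D4 and ATF3 and BATF3 at S2D4. Leaving out 1 library at a time, members called ranged from 8 to 9 at S1D4 and at S2D4, 7 to 9 from S1D4 to S2D4, 3 to 5 from S2D4 to S2D30, 7 to 8 in GIMEN and 7 to 9 for the difference between lines, and stayed 7 in the other comparisons. The share of all genes called ran from 33.6% to 42.8% at S1D4, 58.7% to 65.5% at S2D4, 66.2% to 71.4% at S2D30, 50.1% to 58.2% from S1D4 to S2D4, 45.7% to 53.7% from S2D4 to S2D30, 64.6% to 70.2% in GIMEN, 68.4% to 76.3% between untreated lines and 44.3% to 55.2% for the difference between lines. JUND from S2D4 to S2D30, never called, ran from -0.073 (without S2D4 replicate 3) to 0.28 (without S2D4 replicate 4).

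Replicate numbers did not pair the samples throughout: of 27 same-numbered pairs, 4 had correlated deviations with r above 0.1 (range -0.10 to 0.29). Of these, 3 were among the 4 pairs of untreated and S1D4 SK-N-AS libraries (0.274, 0.266 and 0.293, with 0.044 for replicate 3). Differently numbered pairs of these groups ran from -0.336 (untreated replicate 4 with S1D4 replicate 1) to 0.286 (untreated replicate 4 with S1D4 replicate 3). Untreated replicates 1 and 2 had r of 0.155 to 0.274 with S1D4 replicates 1 and 2. With S1D4 replicates 3 and 4 they had -0.227 to -0.201. Untreated replicate 4 showed the reverse signs, and untreated replicate 3 ran only from -0.093 to 0.063. The replicate block changed 1 of 71 member calls, BATF3 from S2D4 to S2D30 (adjusted p = 0.0659). Under the block 8, 8 and 7 members were called at S1D4, S2D4 and S2D30, 7 from S1D4 to S2D4, 3 from S2D4 to S2D30, 7 in GIMEN, 7 between untreated lines and 8 for the difference between lines, beside 40.8%, 63.6%, 70.9%, 55.7%, 51.6%, 69.7%, 74.3% and 51.3% of all genes. A term for replicates 1 and 2 against 3 and 4, chosen after seeing the data, kept 8 called at S1D4.

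Without TMM, 14 of 54 group levels moved by more than 1 SD (ratios 0.878 to 1.12). With DESeq2 size factors none did (0.977 to 1.02). Likeness kept 26 of 27 genes with a prior count of 0.5 and 4 of 27 over the SK-N-AS libraries alone. Depth limits FOSB, ATF3 and BATF3 in GIMEN, with counts of 1 to 82 per library. It also limits FOS in untreated GIMEN, with 16 to 23 counts per library, the base of its fold change there.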
